A study of Mus musculus with 6 samples.

Results

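The smooth muscle cells described here are the 220 cells that the authors placed in their cluster SMC, the single cluster of 17 named for this cell type, out of 21706 cells in all (1.01%). They held 536601 unique molecular identifiers (UMIs, each counting 1 captured transcript molecule). The YAP5SA libraries gave 82 of these cells, with 24 in tissue-1, 24 in tissue-2 and 34 in enriched. The Control libraries gave 138, with 28 in tissue-2, 88 in tissue-3 and 22 in enriched. In an earlier clustering by the same authors, 201 of the 220 were also called smooth muscle. Of the others, 11 lay in the endothelial cluster EC2, 4 in the macrophage cluster Mph2, 2 in the fibroblast cluster CF4, and 1 each in EC1 and the monocyte cluster Mo2.

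Smooth muscle cells wrap the coronary arteries and arterioles and set vessel calibre by shortening. Calcium entry activates myosin light chain kinase, myosin II slides along alpha smooth muscle actin, and nitric oxide relaxes the cell through soluble guanylate cyclase and cyclic GMP. Serum response factor and its partner myocardin switch on contractile genes through the CArG box, a short motif in their promoters and introns, while Notch3, on the smooth muscle surface, receives Jagged ligands. Pericytes, the mural cells of capillaries, share Rgs5 and Pdgfrb with smooth muscle but hold little of the contractile proteins.

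All cells came from adult mouse hearts after tamoxifen, taken apart with collagenase on a Langendorff apparatus and profiled by Drop-seq, which counts the 3' ends of transcripts of single cells caught in droplets. YAP5SA mice (strain Yap5SA+/tg; Myh6-MCM) carried Myh6-MerCreMer together with a transgene for a form of the Hippo pathway coactivator YAP that the Lats kinases cannot phosphorylate. Control mice (strain Myh6-MCM) carried the recombinase alone. MerCreMer is a tamoxifen-activated Cre driven by the cardiomyocyte promoter Myh6, so the smooth muscle cells of YAP5SA hearts share a heart with cells that express the transgene and are not themselves its target. Each genotype had 3 libraries: tissue-1, tissue-2 and enriched for YAP5SA, and tissue-2, tissue-3 and enriched for Control. In a tissue library the settled cardiomyocytes and the supernatant cells were put back together, and in an enriched library the gravity-settled fraction alone was loaded, so smooth muscle cells there are those left in that fraction. The labels do not say whether libraries of a genotype came from different hearts, so p-values measure the spread between these libraries, which may be technical.

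The median depth of the smooth muscle cells was 1213.5, 1879.5 and 1709 UMIs in YAP5SA tissue-1, YAP5SA tissue-2 and YAP5SA enriched, and 1316, 1670.5 and 1333.5 in Control tissue-2, Control tissue-3 and Control enriched. Their median mitochondrial share was 4.55%, 2.93% and 6.57% in the YAP5SA libraries, against 2.58%, 10.6% and 6.25% in the Control libraries. Cell barcodes found in more than 1 library numbered 10, and 0 of these were smooth muscle cells. In the smooth muscle cells, Control tissue-2 stood apart from the other Control libraries in several measures given below, and Control enriched held only 10 fibroblasts. The 4 libraries YAP5SA tissue-1, YAP5SA tissue-2, Control tissue-2 and Control enriched join the names of overlapping genes and the other 2 do not, so the joined names were merged before any comparison.

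Levels are given in CPM, UMIs of a gene per 1000000 UMIs of all the cells of a cluster in a library, and the values of single libraries always follow the order tissue-1, tissue-2, enriched for YAP5SA and tissue-2, tissue-3, enriched for Control. Since Drop-seq counts 1 end per transcript, CPM is not scaled by gene length. The clusters were drawn from these same counts, so levels in smooth muscle beside those in other clusters are a description with no test.

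The promoter of Myl9, the regulatory light chain that myosin light chain kinase phosphorylates, is shown because it places a CArG box in a gene that marks these cells. It covers chr2:156775214-156775513 (GRCm38.p6, RefSeq, plus strand, 250 bases before and 50 after the start of the gene), and the capitals mark the CArG box, which begins 161 bases before the start.
Myl9: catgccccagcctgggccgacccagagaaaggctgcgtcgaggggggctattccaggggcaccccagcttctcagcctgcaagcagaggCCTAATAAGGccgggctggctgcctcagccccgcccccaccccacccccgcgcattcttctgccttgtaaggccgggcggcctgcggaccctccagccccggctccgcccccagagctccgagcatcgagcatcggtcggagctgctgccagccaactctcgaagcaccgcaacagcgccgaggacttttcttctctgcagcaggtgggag
Searched on both strands, the CArG box was found in 3 of the 22 contractile genes that have such a window (13.6%; Myl9, Myl6 and Ldb3), and in 1.81% of all 27025 gene symbols searched in the same way (1.63% of all 32851 windows, since some genes have more than 1). Myl9 stood at 1424, 1285 and 2306 CPM in the smooth muscle cells of the YAP5SA libraries. Its level was 1477, 1495 and 1199 CPM in those of the Control libraries. The mean of the 6 libraries, 1531 ± 397 CPM (SD, n = 6), was 22.2 times the mean in the endothelial cluster EC (69.1 CPM), the next highest of the vascular and fibroblast clusters, and the libraries of the genotypes overlapped.

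Contractile genes were high in the cluster named for smooth muscle. Of 26 contractile genes, 24 were higher in smooth muscle than in EC and in each of the fibroblast clusters CF1 to CF4, and 7 were at least 10-fold higher. Myh11, the smooth muscle myosin heavy chain, stood at 2015, 1466 and 2269 CPM in the YAP5SA libraries, against 1433, 1671 and 1732 CPM in the Control libraries. Every library lay above 1400 CPM, while EC averaged 32.4 CPM and CF1 to CF4 between 0.962 and 2.41 CPM. Acta2, alpha smooth muscle actin, stood at 2848, 2356 and 6055 CPM in the YAP5SA libraries and 3947, 3805 and 3840.4 CPM in the Control libraries. The 3 Control libraries lay close together and YAP5SA enriched stood far above the other 5. Acta2 averaged 238 CPM in EC and 110 to 350.4 CPM in CF1 to CF4, and it reached 2182 CPM in the cardiomyocyte cluster YAP5SAcm, so it separates smooth muscle from vessel and fibroblast clusters but not from every cluster.

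Rgs5, a regulator of G protein signalling known from pericytes and arterial smooth muscle, stood at 4835, 3691 and 2796 CPM in the YAP5SA libraries. It stood at 4565, 4586 and 3840.4 CPM in the Control libraries. Its mean of 4052 ± 763 CPM (SD, n = 6) was only 2.08 times that in EC (1952 CPM), while CF1 to CF4 held 39.0 to 69.2 CPM. Of the 3 defining markers it had the smallest ratio of smooth muscle to EC. Tagln, an actin-binding protein of smooth muscle, averaged 1860.2 ± 384 CPM and Lmod1, which nucleates actin filaments, 563 ± 230.0 CPM (SD, n = 6), against 75.5 and 7.44 CPM in EC. Thin-filament genes were also abundant, with 2414 CPM for Tpm2 (tropomyosin) and 3035 CPM for Cald1 (caldesmon), and Mylk, the light chain kinase, averaged 873 CPM. Cnn1 (calponin), a gene of fully differentiated smooth muscle, was low and uneven, with 26.9, 0 and 263 CPM in the YAP5SA libraries and 66.2, 113 and 44.4 CPM in the Control libraries.

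**Figure D1:**
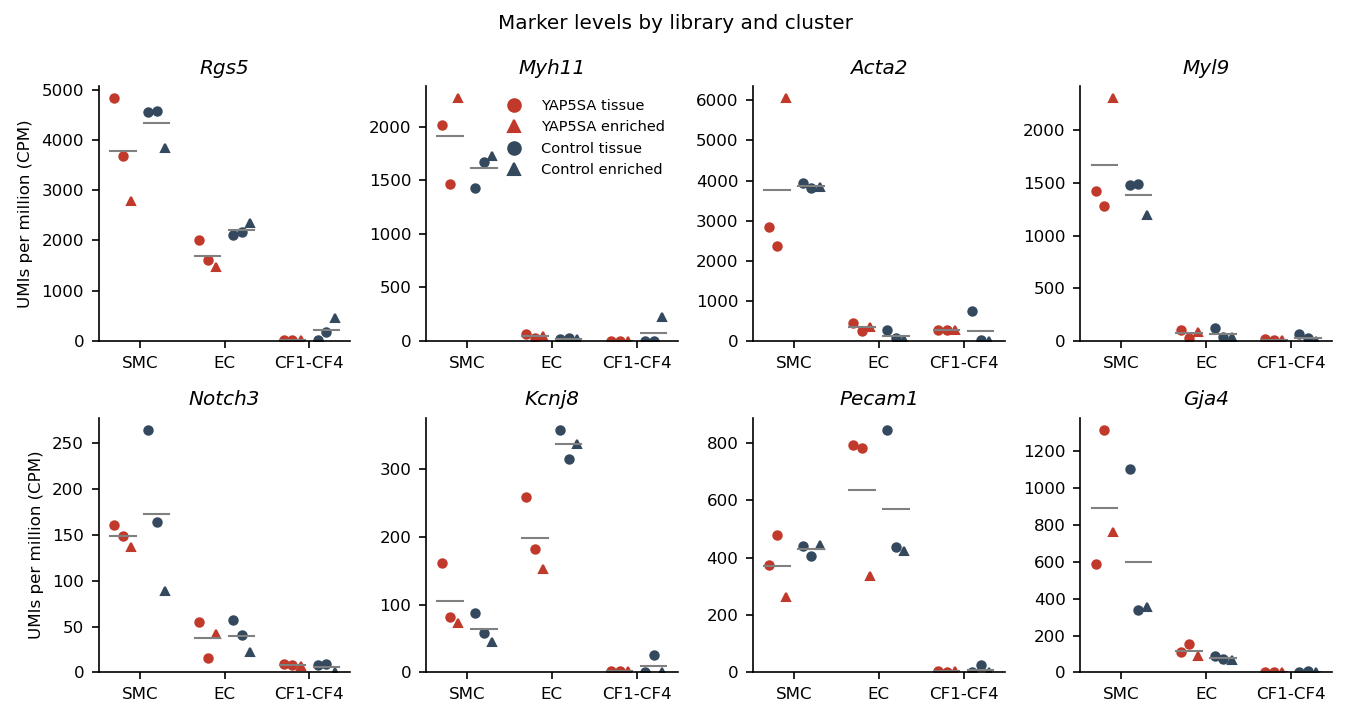
Levels of 8 genes (y axes, CPM) in smooth muscle, EC and CF1 to CF4 (x axes), with a dot for each library coloured by genotype and grey bars for the genotype means. Rgs5, Myh11, Acta2 and Myl9 are highest in smooth muscle, Kcnj8 and Pecam1 are highest in EC, and Notch3 and Gja4 are higher in smooth muscle than in EC.

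Among 3854 features with at least 50 CPM in smooth muscle, 196 were at least 2-fold and 23 at least 10-fold above their highest mean in EC and CF1 to CF4. The 15 features with the largest ratios were Gkn3, Itih4, Nrip2, Olfr78, Lmod1, Myh11, Kcnab1, Map3k7cl, Olfr558, Dgkb, Ccdc3, Gm13861, Bmx, Myl9 and Gja5. The last of them, Gja5, had a ratio of 15.8, and the next feature, Cnn1, had 15.1. All but Bmx were also higher in smooth muscle than in every other of the 17 clusters. Bmx, a Tec-family kinase, reached 303 CPM in the endocardial cluster EndoC and averaged 73.3 CPM in smooth muscle.

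Several of these features encode receptors or channels and not contractile proteins. Olfr558, an odorant receptor gene, stood at 752, 527 and 699 CPM in the YAP5SA libraries and 904, 701 and 977 CPM in the Control libraries, so a gene named for smell was nearly as abundant here as the light chain kinase. In EC it averaged 23.2 CPM. The related gene Olfr78 averaged 123 ± 74.9 CPM (SD, n = 6), against 1.37 CPM in EC, and had UMIs in smooth muscle of all 6 libraries. Kcnab1, a beta subunit of voltage-gated potassium channels, averaged 82.0 ± 40.3 CPM, against 0.335 CPM in EC. Gkn3, a gastrokine gene also known from arterial endothelium in mouse brain, had the largest ratio (274) but no UMI in YAP5SA tissue-1, YAP5SA tissue-2 or Control tissue-2. It stood at 63.5 CPM in YAP5SA enriched, and at 189 and 88.8 CPM in Control tissue-3 and enriched. Itih4, an inter-alpha-trypsin inhibitor heavy chain, was similarly uneven, with 322, 49.4 and 526 CPM in the YAP5SA libraries and 66.2, 33.6 and 22.2 CPM in the Control libraries.

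Some genes of the Notch and nitric oxide pathways were higher in smooth muscle than in EC, as were many genes outside these pathways. Of 16 Notch pathway genes, 11 were higher in smooth muscle than in EC and CF1 to CF4. Of the 16, 9 averaged at least 50 CPM in smooth muscle. The receptor Notch3 averaged 160.5 ± 57.9 CPM in smooth muscle and 38.6 CPM in EC. Its ligand Jag1 averaged 196 ± 75.7 CPM and 33.7 CPM, and the target genes Hey1 and Hes1 averaged 168 and 610 CPM in smooth muscle, against 31.7 and 353 CPM in EC. Of 14 nitric oxide and cyclic GMP genes, 8 were higher in smooth muscle than in EC and CF1 to CF4. Of the 14, 7 averaged at least 50 CPM in smooth muscle, and Pde1c and Npr3 had 0 UMIs there in every library. Gucy1a3 and Gucy1b3, the subunits of soluble guanylate cyclase, averaged 535 ± 212 and 501 ± 127 CPM, against 96.0 and 111 CPM in EC, and Pde3a, a phosphodiesterase that cyclic GMP inhibits, 258 ± 90.1 CPM, against 25.4 CPM in EC. Ion channel and pump genes were higher in smooth muscle than in EC and CF1 to CF4 for 25 of the 39 members in the table. Of the 39, 15 averaged at least 50 CPM in smooth muscle. Such counts are not particular to these lists, since 33 of 45 nuclear respiratory genes were also highest in smooth muscle of these clusters. The share over all features is not given. Atp1b2, a beta subunit of the sodium pump, averaged 172 CPM in smooth muscle and 33.6 CPM in EC. Of 42 receptors for vasoactive ligands 38 were in the table, and 10 of these were higher in smooth muscle than in EC and CF1 to CF4. Agtr1a, an angiotensin receptor, had 0 UMIs in the smooth muscle cells of all 6 libraries, and a count of 0 allows up to 3 UMIs in each.

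Genes of the vessel's elastic layer were present in smooth muscle, and few were highest there. Of 22 elastic fibre genes, 2 were higher in smooth muscle than in EC and CF1 to CF4. Fbln5, which ties elastin to the cell, stood at 1182, 1120 and 908 CPM in the YAP5SA libraries, against 1191, 441 and 422 CPM in the Control libraries. Control tissue-2 lay with the YAP5SA libraries and the other Control libraries lay below them. Eln, elastin, averaged 254 ± 185 CPM and was higher in CF1 (315 CPM). Mgp, an inhibitor of vascular calcification, averaged 5121 ± 2573 CPM in smooth muscle and 10698 CPM in CF1.

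Pericyte genes were divided between smooth muscle and EC. Of the 10 pericyte markers, 6 were higher in smooth muscle than in EC and CF1 to CF4 (Rgs5, Pdgfrb, Notch3, Higd1b, Cspg4 and Ndufa4l2). Pdgfrb, the receptor through which endothelium recruits mural cells, averaged 205 ± 92.1 CPM in smooth muscle and 101 CPM in EC, and Rgs4 averaged 579 ± 294 CPM and 108 CPM. The other 4 of the 10 markers were lower in smooth muscle than in EC. Kcnj8, the potassium channel subunit of pericytes, averaged 84.6 ± 40.8 CPM in smooth muscle and 268 CPM in EC. Abcc9, its sulfonylurea receptor partner, averaged 70.5 and 155 CPM, Vtn 72.7 and 92.6 CPM, and Colec11 89.1 and 106 CPM.

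Endothelial transcripts were abundant in smooth muscle. The 10 endothelial markers summed to 11820, 14203 and 10231 CPM in the smooth muscle cells of the YAP5SA libraries, and to 9570, 9898 and 9834 CPM in those of the Control libraries. The same sum ran from 16844 to 26378 CPM in EC and from 178 to 1299.5 CPM in CF, so every smooth muscle library lay below EC and above the fibroblasts. Pecam1, an adhesion molecule of endothelial junctions, averaged 402 ± 76.1 CPM in smooth muscle, 604 CPM in EC and at most 11.1 CPM in CF1 to CF4. None of the 10 was higher in smooth muscle than in EC. Some genes known from arterial endothelium were picked after their values were seen because they were higher in smooth muscle than in EC, so they speak for no list. The connexin Gja4 averaged 745 ± 399 and 96.2 CPM, Sema3g, a secreted semaphorin, 421 and 45.7 CPM, and the transcription factor Sox17 463 and 214 CPM.

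Single cells were thinned to 500 UMIs each to see whether contractile and endothelial transcripts lay in the same cells. Of the 220 smooth muscle cells, 99 (45.0%) held UMIs both of 3 contractile genes (Acta2, Myh11 and Tagln) and of 7 endothelial genes. A further 83 held contractile UMIs alone, 19 endothelial UMIs alone and 19 neither. In EC the cells with both were 106 of 1726 (6.14%) and in CF 9 of 6375 (0.141%), with 0 cells left out for depth in any of the 3 classes. Any endothelial UMI was found in 75.0%, 54.2% and 47.1% of the smooth muscle cells of the YAP5SA libraries, and in 39.3%, 54.5% and 54.5% of those of the Control libraries. In CF, which should lack these genes, the shares were 0.922%, 0.776% and 1.20% in the YAP5SA libraries and 0.751%, 6.99% and 20% in the Control libraries, the last of them 2 of 10 cells. Every smooth muscle share lay above its library's CF share. RNA free in the droplets was not estimated, and its part in the smooth muscle shares was not tested. The median depths before thinning were 886 to 2087 UMIs in CF. Without thinning, 76.8% of smooth muscle cells held both kinds of UMI as a mean over libraries, against 46.0% with it. The pericyte genes Kcnj8, Abcc9, Vtn and Colec11, which are the 4 of the 10 markers with lower levels in smooth muscle than in EC, were found in 31 of the 220 smooth muscle cells and 407 of the 1726 EC cells. Rgs5, a marker with a higher level in smooth muscle, was found in 73.5% to 96.4% of the smooth muscle cells of a library and in 36.0% to 63.3% of the EC cells. Doublets, droplets with a pair of cells, were not removed by any caller, and their part in the cells with both kinds of transcript was not tested.

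**Figure D2:**
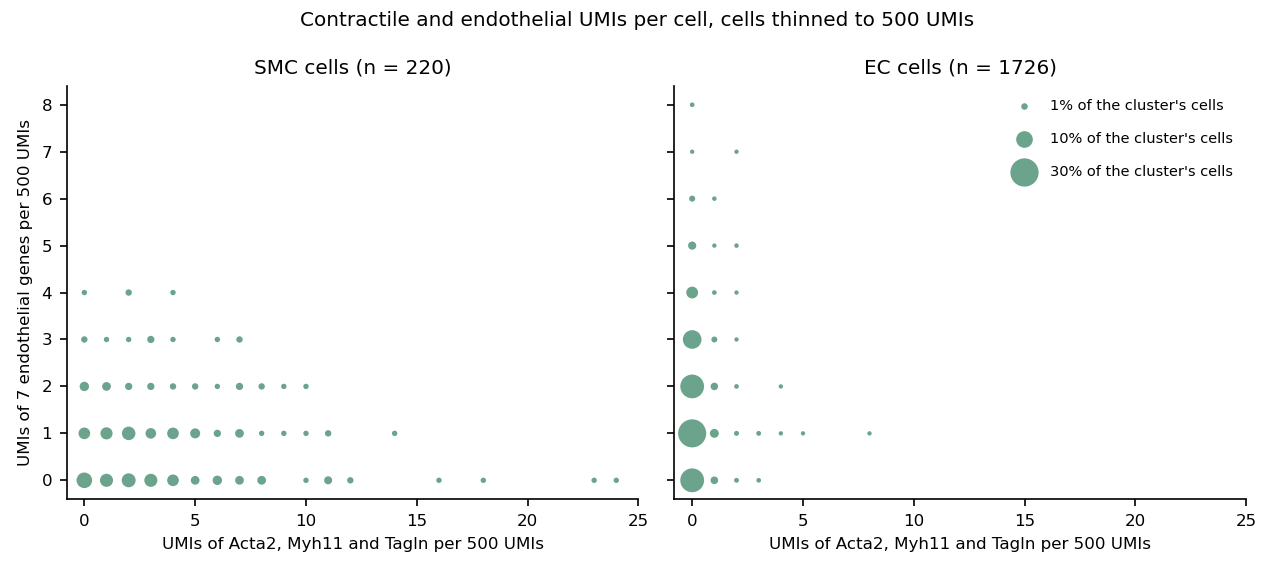
UMIs of 7 endothelial genes (y axis) against contractile UMIs (Acta2, Myh11 and Tagln, x axis) in single cells thinned to 500 UMIs. Bubble area grows with the percent of the cluster's cells, for the 220 smooth muscle cells and the 1726 EC cells. Most EC cells lie on the vertical axis, while 99 smooth muscle cells lie off both axes.

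Fibroblast transcripts split the smooth muscle libraries. Dcn, the matrix proteoglycan decorin, stood at 80.6, 115 and 1943 CPM in the smooth muscle cells of the YAP5SA libraries, against 88.2, 4036 and 3752 CPM in those of the Control libraries. The low libraries were the tissue libraries other than Control tissue-3. Fibroblasts of the same libraries held 6482 to 22229.7 CPM of Dcn. Cells with at least 20 UMIs of Dcn, Gsn, Lum and Col1a2 together, a limit set after the values were seen, numbered 0, 0 and 7 in the YAP5SA libraries and 0, 32 and 6 in the Control libraries. These 45 cells had a median of 3265 UMIs, against 1273 in the other smooth muscle cells. The limit was set on counts that were not thinned, so deeper cells reach it more easily. After thinning to 500 UMIs, cells with at least 10 UMIs of the 10 fibroblast markers were also counted. They numbered 1, 0 and 1 in the YAP5SA libraries and 1, 12 and 4 in the Control libraries. The summed epicardial markers lay between 0 and 22.2 CPM in every library and 6 of the 8 were at 0 in all.

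The genotype comparison asked whether smooth muscle cells differ in hearts whose cardiomyocytes express the activated YAP. No gene passed the test. Of 998 features tested on counts summed per library (edgeR quasi-likelihood test with preparation as a term), 0 had a Benjamini-Hochberg adjusted p under 0.05 (0%), and the lowest adjusted p was 0.71. At an unadjusted p under 0.05 there were 48 features (4.81%), 16 higher (1.6%) and 32 lower (3.21%) in YAP5SA, and DESeq2 called 0 with 38 at an unadjusted p under 0.05. That split depended on the scaling and on single libraries: with library totals alone, which moved the median log2 fold change of all features to 0.12, it was 27 higher and 21 lower, and without Control tissue-2 it was 70 higher and 70 lower. The median standard error was 0.39 on the log2 scale, so these 220 cells resolve large changes only, and a missed threshold does not show that the genotypes were alike. Without the filter on low counts 17 of 14571 features passed. All values called log2 fold changes below are YAP5SA over Control, so that a positive one is higher in YAP5SA.

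Yap1 had few UMIs in smooth muscle. Its level was 0, 65.9 and 27.2 CPM in the YAP5SA libraries, against 0, 8.4 and 0 CPM in the Control libraries. These rest on at most 4 UMIs a library, the genotypes overlapped, and Yap1 did not reach the filter for the test. Whether the transgene's RNA is counted as Yap1 is not given in the labels, and its driver is not active in smooth muscle, so the genotypes cannot be checked from it.

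Contractile genes gave fold changes on both sides of 0. Of 26 in the list 15 could be tested, 0 passed, 8 lay above and 7 below a log2 fold change of 0, and their median was 0.02, beside a median of 0.00 over all features tested. Myh11 averaged 1917 ± 410.4 CPM in YAP5SA and 1612 ± 158 CPM in Control (SD, n = 3 each; log2 fold change 0.16, SE 0.29, edgeR adjusted p = 0.967). Acta2 averaged 3753 ± 2009 CPM in YAP5SA and 3864 ± 74.2 CPM in Control (log2 fold change -0.24, SE 0.34, edgeR adjusted p = 0.942). Rgs5 averaged 3774 ± 1022 CPM in YAP5SA and 4330.3 ± 424 CPM in Control (log2 fold change -0.29, SE 0.28, edgeR adjusted p = 0.929). The member with the smallest p was Pln, phospholamban, the inhibitor of the calcium pump of the sarcoplasmic reticulum. It stood at 161, 65.9 and 390.4 CPM in the YAP5SA libraries and 154, 727 and 1310.4 CPM in the Control libraries, with a log2 fold change of -2.06 (edgeR adjusted p = 0.737), and overlapped between genotypes. Pln is also a cardiomyocyte gene, and the summed cardiomyocyte markers in smooth muscle were 4594, 1384 and 2360.3 CPM in the YAP5SA libraries, against 3264, 4686 and 15939 CPM in the Control libraries, all 10 with UMIs. Their part in the Pln value was not tested.

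**Figure D3:**
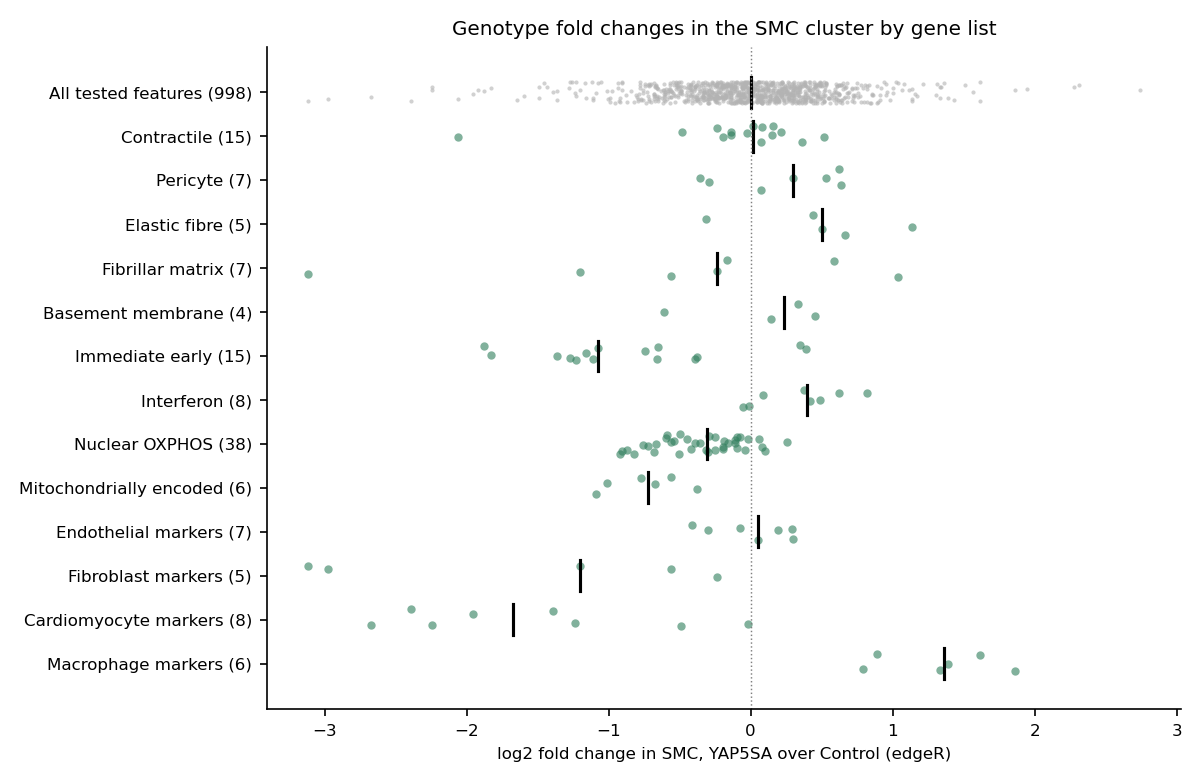
Log2 fold changes in smooth muscle, YAP5SA over Control (x axis), for the tested members of each gene list (rows), with a dot for each gene and a bar for the list's median. Contractile genes centre near 0, immediate early genes lie mostly below 0 with a median of -1.07, and no dot passed the test.

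Signalling lists had few tested members. The 3 Notch genes tested had a median log2 fold change of 0.00, the 4 nitric oxide and cyclic GMP genes -0.54 and the 4 ion channel genes -0.41, with 0 called in each. Pdgfa, a ligand of the platelet-derived growth factor receptors, stood at 242, 346 and 254 CPM in the YAP5SA libraries, against 154, 181 and 44.4 CPM in the Control libraries. All 3 YAP5SA libraries lay above the Control libraries, with a log2 fold change of 1.08 that did not pass (SE 0.43, edgeR adjusted p = 0.864). Groups without overlap were found for 6.31% of all features in this direction and for 3.81% in the other. Id3 and Id1, targets of bone morphogenetic protein signals, lay lower in all YAP5SA libraries. Id3 stood at 1451, 1829 and 1725 CPM in the YAP5SA libraries and 3065, 2772 and 2198 CPM in the Control libraries, and its log2 fold change of -0.74 did not pass (SE 0.28, edgeR adjusted p = 0.864).

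Matrix genes lay on both sides of 0. The 5 elastic fibre genes tested had a median log2 fold change of 0.50, the 4 basement membrane genes 0.24 and the 7 fibrillar matrix genes -0.24, with 0 called. Eln stood at 215, 610 and 209 CPM in the YAP5SA libraries, against 265, 113 and 111 CPM in the Control libraries, and the log2 fold change of 1.14 had an edgeR adjusted p of 0.864. Of 22 YAP target genes 3 could be tested, with a median of -0.02. Cyr61, a matricellular protein, stood at 457, 280.1 and 572 CPM in the YAP5SA libraries and 507, 1369 and 2020.1 CPM in the Control libraries (log2 fold change -1.64, edgeR adjusted p = 0.737). Ctgf, of the same family, had -0.02. Ankrd1, a nuclear ankyrin-repeat protein of stressed muscle that is most abundant in the cluster YAP5SAcm (14139 CPM), averaged 1041 ± 522 CPM in YAP5SA and 391 ± 416 CPM in Control (log2 fold change 1.51, edgeR adjusted p = 0.864).

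Immediate early genes, which cells switch on within minutes of a stimulus, lay lower in YAP5SA smooth muscle in 13 of 15 tested members, with a median log2 fold change of -1.07, and 0 passed. Their summed level was 9752, 7645 and 6627 CPM in the YAP5SA libraries, against 8247, 18553 and 22576 CPM in the Control libraries. Control tissue-2 lay within the YAP5SA range, and the other Control libraries stood far above it. Egr1, a zinc finger transcription factor of this class, stood at 564, 346 and 472 CPM in the YAP5SA libraries and 639, 1881 and 2087 CPM in the Control libraries, with a log2 fold change of -1.83 (SE 0.50, edgeR adjusted p = 0.737). The same sum in EC ran 5960, 5626 and 4711 CPM in the YAP5SA libraries and 10136, 13484 and 20957 CPM in the Control libraries. The high libraries were high in EC too, but there Control tissue-2 also lay above every YAP5SA library. In CF the sum was 6054, 3960.1 and 3728 CPM in the YAP5SA libraries and 4819, 16599 and 11282 CPM in the Control libraries, with Control tissue-3 and Control enriched again above the other 4.

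Respiratory genes encoded in the nucleus had a median log2 fold change of -0.30, with 34 of 38 below 0 and 0 called. They summed to 19557, 18388 and 21261 CPM in the YAP5SA libraries and 19075, 21060 and 29480 CPM in the Control libraries. Control enriched stood highest, and it did so in EC (31577 CPM) and CF (38427 CPM) too. The 6 tested genes of the mitochondrial genome had a median of -0.72. The mitochondrial list summed to 17005, 10281 and 22205 CPM in the YAP5SA libraries and 12084, 33960 and 23464 CPM in the Control libraries. Control tissue-2 lay within the YAP5SA range. Sdhb, a subunit of complex II, stood at 430, 313 and 281 CPM in the YAP5SA libraries and 684, 407 and 777 CPM in the Control libraries (log2 fold change -0.92, edgeR adjusted p = 0.864). The lower feature with the smallest p was Myl2, the ventricular myosin light chain, 13.6-fold below the cardiomyocyte cluster CM1 (log2 fold change -2.24, edgeR adjusted p = 0.71). The mitochondrial ribosomal RNA mt-Rnr1 came next, at 1048, 889.7 and 1698 CPM in the YAP5SA libraries against 2602, 3267 and 3263 CPM in the Control libraries (log2 fold change -1.45, SE 0.31, edgeR adjusted p = 0.71). No YAP5SA library reached the lowest Control library. Gstm1 and Sod2, an enzyme of glutathione conjugation and the mitochondrial superoxide dismutase, had log2 fold changes of -1.60 and -1.43 (edgeR adjusted p = 0.737).

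On the higher side Tgm2, a transglutaminase that cross-links matrix proteins, had the smallest p. It stood at 215, 659 and 254 CPM in the YAP5SA libraries, against 110.3, 75.6 and 44.4 CPM in the Control libraries. Its libraries did not overlap, and the log2 fold change of 2.31 (SE 0.51) had an edgeR adjusted p of 0.71. Tgm2 reached 729 CPM in the cluster YAP5SAcm. Tmem256 stood at 403, 478 and 508 CPM in the YAP5SA libraries and 243, 210.0 and 199.8 CPM in the Control libraries, a log2 fold change of 1.02 with an edgeR adjusted p of 0.737. Ctla2a, named for a lymphocyte antigen, had a smaller p than Tmem256 (log2 fold change 2.74, edgeR adjusted p = 0.737), but its mean of 261 CPM in smooth muscle lay 20.1-fold below that in the endocardial cluster EndoC, and it is set apart for that reason. It stood at 510.4, 527 and 281 CPM in the YAP5SA libraries and 198 and 46.2 CPM in Control tissue-2 and tissue-3, with 0 UMIs in Control enriched, so the fitted value depends on a count of 0 and is no bound. The next features in order, leaving out those more than 5-fold below another cluster, were Mrpl52, a mitochondrial ribosomal protein, at 1.34, the chaperone Hsp90aa1 at 1.36, and Pkm, pyruvate kinase, at 1.14, each with an edgeR adjusted p of 0.737.

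Markers of other cell types differed between the smooth muscle libraries, and 0 passed the test. The 10 fibroblast markers summed to 1746, 1186 and 5465 CPM in the YAP5SA libraries and 3639, 9923 and 8879.6 CPM in the Control libraries, all 10 with UMIs, and the 5 that could be tested had a median log2 fold change of -1.20. For 8 cardiomyocyte markers the median was -1.68 and for 6 macrophage markers 1.36. The 10 macrophage markers summed to 2606, 5338 and 3114 CPM in the YAP5SA libraries and 4741, 978 and 22.2 CPM in the Control libraries, with 9 of the 10 at 0 in Control enriched. The 7 endothelial markers tested had a median of 0.05. The part of these transcripts in the values above was not tested.

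**Figure D4:**
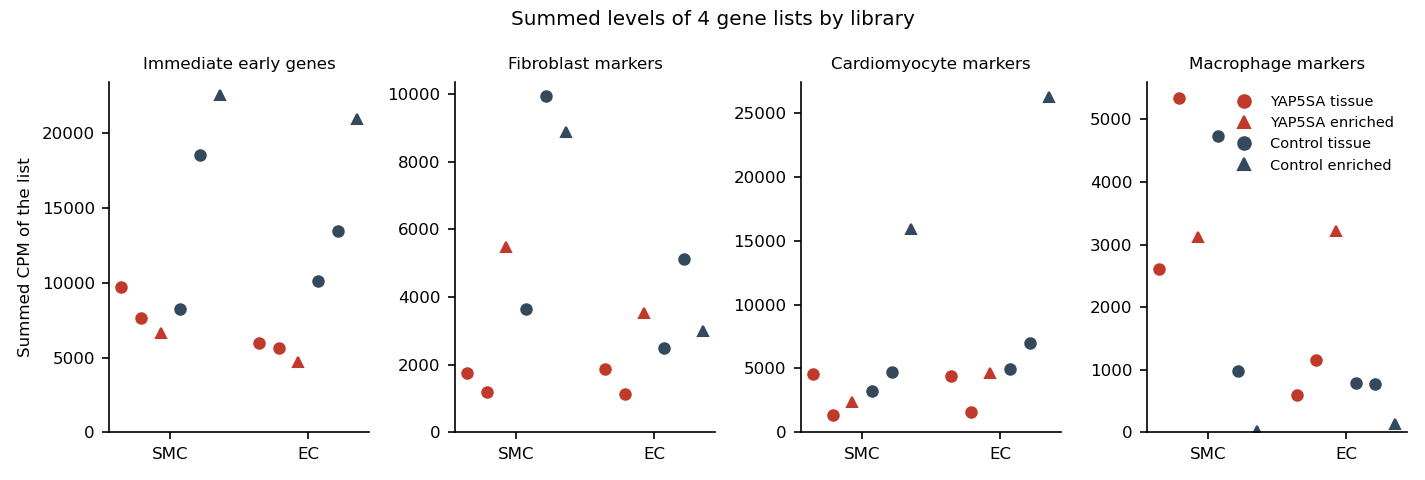
Summed CPM (y axes) of the immediate early genes and of the fibroblast, cardiomyocyte and macrophage markers in smooth muscle and EC, with a dot for each of the 6 libraries. Control tissue-3 and Control enriched stand high for immediate early genes in both clusters. For these genes Control tissue-2 lies near the YAP5SA libraries in smooth muscle and above them in EC.

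The difference of genotype effects between smooth muscle and EC was tested with the interaction of class and genotype, fitted with each library as its own block. Of 4272 features 2 passed (0.0468%), both with a lower log2 fold change in smooth muscle than in EC. At an unadjusted p under 0.05 there were 208 (4.87%). Acta2 in EC stood at 451, 244 and 344 CPM in the YAP5SA libraries, against 277, 83.0 and 31.7 CPM in the Control libraries. It was low in EC of Control tissue-3 and Control enriched, and its smooth muscle values, given above, did not show that split. The difference of log2 fold changes, smooth muscle minus EC, was -2.09 (SE 0.30, edgeR adjusted p = 1.56e-06). Within EC the log2 fold change of 1.74 did not pass by itself (edgeR adjusted p = 0.483). Igfbp5, Serpine2 and Palld did not pass, with differences of -1.34, -1.52 and -1.96 and edgeR adjusted p of 0.104, 0.105 and 0.116. The call of Acta2 was lost with DESeq2 (adjusted p = 0.122), without YAP5SA enriched, without Control enriched, in the tissue libraries alone and in the 4 libraries with joined names, where the difference was -0.88 (edgeR adjusted p = 0.879).

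Against the fibroblasts CF1 to CF4 the same term passed for 16 of 4460 features (0.359%). The log2 fold change was higher in smooth muscle than in CF for 13 (0.291%) and lower for 3 (0.0673%). At an unadjusted p under 0.05 there were 261 (5.85%). The make-up of CF differed between libraries. Cluster CF4 gave 258 of 1302, 409 of 1934 and 272 of 1249 CF cells in the YAP5SA libraries. In the Control libraries it gave 425 of 1465, 12 of 415 and 0 of 10. The part of this make-up in the CF values here and below was not tested. Fbln5 in CF stood at 83.9, 33.1 and 59.4 CPM in the YAP5SA libraries and 164, 254 and 223 CPM in the Control libraries. CF held less of Fbln5 in every YAP5SA library, while its smooth muscle values overlapped. CF of Control enriched held 8952 UMIs in 10 cells, so its values here and below rest on few UMIs. The difference of log2 fold changes, smooth muscle minus CF, was 2.65 (SE 0.51, edgeR adjusted p = 0.000239). Igfbp5, a binding protein of insulin-like growth factors, stood at 537, 330 and 436 CPM in YAP5SA smooth muscle and 595, 483 and 488 CPM in Control smooth muscle. In CF it stood at 682, 785 and 443 CPM in the YAP5SA libraries and 117, 135 and 223 CPM in the Control libraries, and the difference was -2.68 (SE 0.52, edgeR adjusted p = 0.000239).

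Rgs5 had a difference of 2.55 (SE 0.55, edgeR adjusted p = 0.00367). In CF it stood at 14.6, 9.25 and 25.6 CPM in the YAP5SA libraries and 21.6, 180.4 and 447 CPM in the Control libraries, the last on 4 UMIs. Of the 10 endothelial markers 1 was called, Kdr, the receptor of vascular endothelial growth factor, with a difference of 3.63. Kdr in CF stood at 5.37, 2.58 and 6.53 CPM in the YAP5SA libraries and 4.65, 48.0 and 223 CPM in the Control libraries. The 10 endothelial markers summed in CF to 516, 475 and 486 CPM in the YAP5SA libraries and 178, 1299.5 and 1117 CPM in the Control libraries, all 10 of them low beside EC. Their part in these differences was not tested. Ccl9, a chemokine made by macrophages, had the largest difference among those higher, 5.25 (SE 0.92, edgeR adjusted p = 4.55e-05). Its smooth muscle UMIs numbered 4, 14 and 16 in the YAP5SA libraries and 3, 2 and 0 in the Control libraries. The summed macrophage markers of these libraries are given above, and their part in this difference was not tested. Rgs4 and Pcp4l1 had differences of 3.79 and 3.46.

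The number of calls against CF depended on the test and on single libraries. DESeq2 called 4 of 4460: Ccl9, 8430408G22Rik, Igfbp5 and Pcp4l1. Leaving out YAP5SA tissue-1, YAP5SA tissue-2 or YAP5SA enriched left 2, 1 and 1 calls, leaving out Control tissue-3 left 7, and leaving out Control tissue-2 gave 96. RLE size factors gave 15, library totals alone 17, and leaving out Control enriched 16. For the 5 features with the smallest p, 0 of 74 values under an alternative changed sign and 30 no longer passed. By themselves, EC had 0 of 5344 features called for genotype (0%; edgeR, with 547 at an unadjusted p under 0.05) and CF had 238 of 10708 (2.22%), 155 higher (1.45%) and 83 lower (0.775%) in YAP5SA. With library totals alone CF had 26, 24 higher and 2 lower.

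The number of smooth muscle cells depended on what it was counted against. They made up 0.624%, 0.41% and 0.745% of all cells in the YAP5SA libraries (95% Clopper-Pearson intervals 0.40 to 0.927, 0.263 to 0.609 and 0.516 to 1.04), and 0.961%, 2.82% and 1.57% in the Control libraries (0.639 to 1.39, 2.27 to 3.47 and 0.984 to 2.36). The intervals cover counting error only. Every YAP5SA share lay below every Control share, with a difference of means of -1.19 percentage points (exact two-sided permutation within preparation, p = 0.17, the smallest that the 12 arrangements allow). Per 100 EC cells there were 17.4, 17.3 and 14.05 smooth muscle cells in the YAP5SA libraries and 29.5, 10.6 and 7.77 in the Control libraries. The means of 16.2 and 16.0 differed by 0.281 and the libraries overlapped (exact permutation p = 1). Outside the cardiomyocyte clusters the shares were 0.685%, 0.43% and 0.955% in the YAP5SA libraries and 1.20%, 4.53% and 6.53% in the Control libraries. CF numbered 1302, 1934 and 1249 cells in the YAP5SA libraries and 1465, 415 and 10 in the Control libraries.

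Few smooth muscle cells were called cycling. By the deposited phase calls 3, 2 and 6 cells were in S or G2/M phase in the YAP5SA libraries (12.5%, 8.33% and 17.6%), and 4, 4 and 2 in the Control libraries (14.3%, 4.55% and 9.09%). The shares overlapped, with a difference of means of 3.52 percentage points (exact two-sided permutation within preparation, p = 0.5). In EC the shares were 37.7%, 28.1% and 24.0% in the YAP5SA libraries and 18.9%, 17.5% and 12.4% in the Control libraries, above smooth muscle in each library. Phase calls depend on depth and on free RNA, and the summed S phase genes in smooth muscle were 457, 527 and 581 CPM in the YAP5SA libraries, against 706, 332 and 555 CPM in the Control libraries. The G2/M genes summed to 403, 379 and 672 CPM in the YAP5SA libraries and 353, 281 and 244 CPM in the Control libraries. None of the 32 S phase or 35 G2/M phase genes was higher in smooth muscle than in EC and CF1 to CF4, and none reached the filter for the genotype test.

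**Figure D5:**
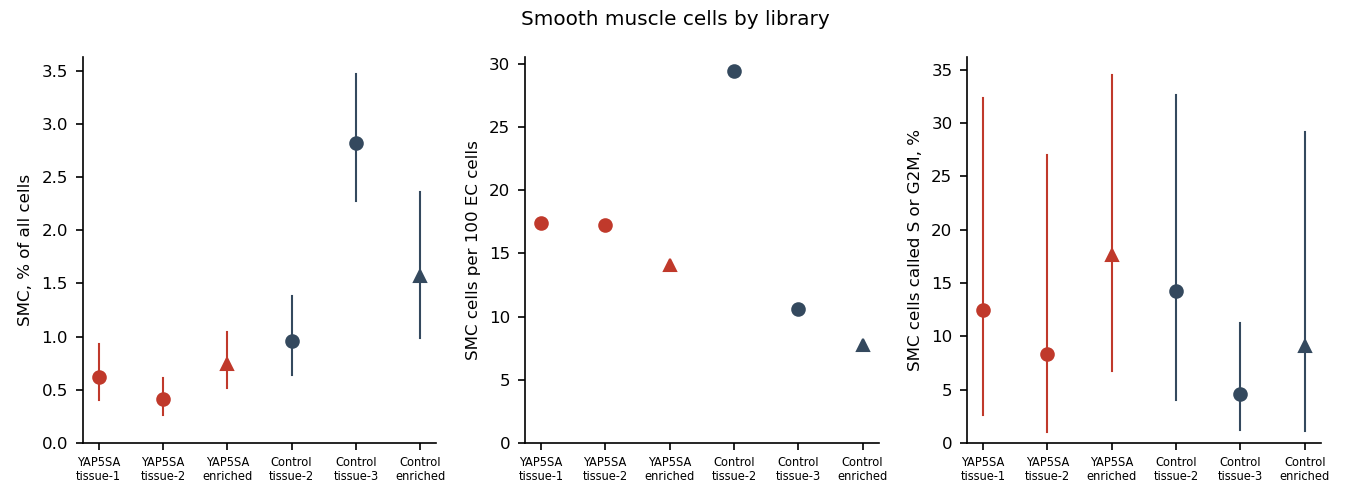
Smooth muscle cells in each of the 6 libraries as a percent of all cells with 95% intervals, as a number per 100 EC cells, and as the percent called cycling with 95% intervals. The YAP5SA libraries lie below the Control libraries only in the share of all cells, and the intervals of the cycling share overlap throughout.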

How the data were processed

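Drop-seq libraries of adult mouse hearts were analysed, 3 from YAP5SA and 3 from Control. The submitters' processing notes name the tools Picard, STAR and Seurat (2.3.4). Their settings, the genome build and the annotation are not given in the sources used here. UMI counts of 22281 features in 21706 cells were deposited by the authors without normalization. A second deposited table lists for every cell its library, its cluster, its phase call and the mitochondrial fraction of its UMIs. A deposited table of scaled values was not used. Columns of cells that belong to none of the 6 samples numbered 0. The members and the gene lists were chosen with earlier results of these data known.

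In 4 libraries names of overlapping genes are joined, so 864 such names were combined with the single names they hold, giving 618 families and 21175 features. The 1205 features counted in 1 way only were not tested. They held 0.115% of the UMIs of the 4 libraries with joined names and 0.253% of those of the others. Whether counting used strand is not given in the sources used here, so reads of overlapping and antisense genes may be shared. Counts were summed per library and class (smooth muscle, EC, and CF1 to CF4 together), each library with at least 10 cells, and held 37225 to 238131 UMIs per library in smooth muscle, which limits the precision of low genes. edgeR 4.0.16 in R 4.3.3 (TMM, filterByExpr by genotype, robust quasi-likelihood F test, preparation and genotype as terms, 3 residual degrees of freedom) was the test, with a threshold of 0.05 on the Benjamini-Hochberg adjusted p. Differences between classes came from the class by genotype term with the library as a block. For shares of cells the test was an exact two-sided permutation within preparation, and intervals are exact Clopper-Pearson at 95%. Cells were thinned to 500 UMIs for shares of cells with a transcript. No doublet caller was run. Scripts were tested on simulated data.

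Genes were named by rule: the 3 markers, the 15 features with the largest ratio of smooth muscle to EC and CF1 to CF4 at 50 CPM or more, the 5 smallest p in each direction where fewer than 5 features passed (average log2 CPM of at least 5, the same direction in both preparations, and not more than 5-fold below another cluster of at least 100 cells), the 2 smallest p of each list, the 5 smallest p of each difference, and Yap1. Other genes named were chosen as members of the lists or after their values were seen. Alternatives were DESeq2 1.42.0, scaling by RLE size factors or by library totals, no filter, no preparation term, names as deposited, equal numbers of cells, cells over 3 times the median UMIs left out, tissue libraries alone, each library left out, other thinning depths and, chosen after seeing the data, the cells of the earlier smooth muscle cluster and the 4 libraries with joined names. Promoter windows came from RefSeq (GRCm38.p6), where 22 of 26 contractile genes matched. Some genes that meet these rules are not reported here.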

Additional observations from a re-analysis of the deposited data

Results flagged for a closer look

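Each of the following was marked because the effect of genotype differed between smooth muscle and another class, tested with the class by genotype term of edgeR (adjusted p under 0.05). Values are differences of log2 fold changes, smooth muscle minus the other class. Against EC Acta2 had -2.09.

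Against CF1 to CF4 the 5 with the smallest p were Ccl9 at 5.25, Fbln5 at 2.65, Rgs4 at 3.79, Igfbp5 at -2.68 and Rgs5 at 2.55. The others with a higher log2 fold change in smooth muscle were, in order of p, 8430408G22Rik at 3.57, Igfbp3 at 3.32, Kdr at 3.63, Pcp4l1 at 3.46, Cd36 at 2.00, Esam at 2.87, S1pr1 at 2.86, Gpihbp1 at 2.49 and Rbp7 at 3.65. The membrane protein Gpm6b had -3.86 and the growth factor Ptn had -10.16. The Ptn value depends on counts of 0 and is no bound: its UMIs in smooth muscle numbered 0, 0 and 3 in the YAP5SA libraries (tissue-1, tissue-2, enriched) and 0, 15 and 5 in the Control libraries (tissue-2, tissue-3, enriched).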

How the results depend on the processing

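For the genotype effect in smooth muscle, 0 features passed with RLE size factors, library totals alone, DESeq2, no preparation term, names as deposited, equal numbers of cells, high-UMI cells left out, tissue libraries alone and the cells of the earlier smooth muscle cluster. Without the filter on low counts 17 passed, Tgm2 and Egr1 among them, and in the 4 libraries with joined names 3 did. Leaving out each library gave 0 to 1, the 1 without Control tissue-2. The other 2 libraries hold 1 of each genotype, too few for a fit. For smooth muscle minus EC, 0 passed with DESeq2 and in tissue libraries alone, 1 without the filter, 1 without high-UMI cells, 4 in the cells of the earlier cluster, and 0 to 9 with each library left out, 0 without YAP5SA enriched or Control enriched and 9 without Control tissue-2. For smooth muscle minus CF, 4 passed with DESeq2, 2 without the filter, 1 with equal numbers of cells, 9 without high-UMI cells, 10 in tissue libraries alone, and 1 to 96 with each library left out. With library totals alone EC had 14 features called and CF 26. The causes were not tested.

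The difference in the share of cells ran from -1.60 to -0.671 percentage points with each library left out and had the other sign per 100 EC cells (0.281). The difference in the share called cycling ran from 1.11 to 6.01 percentage points. Of 905 values of 56 gene effects under an alternative, 16 changed sign, all in the genotype effect in smooth muscle. In the libraries with joined names these were the feature joining Gm13889 and Alkbh3 (-0.13), Mef2c (0.13), Hes1 (0.41), Ppp1r12a (0.071), Gucy1a3 (0.0013), Rgs4 (0.90), Fbln5 (-0.024), mt-Nd5 (0.19) and mt-Co1 (0.16). In tissue libraries alone they were Hes1 (0.0015) and Rgs4 (0.14). With each library left out Hes1 ran from -0.77 to 0.045, Rgs4 from -0.79 to 0.19 and Lum from -2.01 to 0.32. The sign changed without either enriched library for Hes1 and Rgs4 and without Control tissue-3 for Lum.

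The mean share of smooth muscle cells with a contractile UMI was 82.4% at 500 UMIs, 69.6% at 300, 92.2% at 1000 and 92.3% without thinning. For a UMI of Kcnj8, Abcc9, Vtn or Colec11 it was 14.99%, 8.66%, 21.1% and 33.4%. For contractile and endothelial UMIs together it was 46.0%, 27.0%, 67.6% and 76.8%, so these shares follow depth. A fit to libraries with at least 30 cells could not be fitted, since only 2 libraries have that many. No paired analysis was possible because the library names of the YAP5SA tissue samples do not carry the labels' replicate numbers.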
